A study of Oryza sativa with 4 samples.

Results

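Aminoacyl-tRNA synthetases are the enzymes that join each amino acid to its transfer RNA, and the loci described here are the 46 rice loci, of 10455 in the deposited table, whose descriptions name such an enzyme or an aminoacyl-tRNA. The rule that picks them uses words in the description and no measured value. Of the 46 loci, 38 name 1 amino acid and cover all 20 amino acids, 5 are described as synthetases without a single amino acid, and 3 are not synthetases (2 loci with a YbaK/synthetase-associated domain and 1 D-aminoacyl-tRNA deacylase). The 46 loci hold 67 transcripts, and the value of a locus is the mean over its transcripts. No member could be matched by locus to the RefSeq gene table for assembly ASM3414082v1, so members carry the identifiers and descriptions of the deposited table, and no sequence is shown.

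The study profiled ribosomes in shoots of wild-type rice aged 2 weeks, grown in a greenhouse. Pots were turned upside down and the shoots held in water for 10 min, at 22 °C for the control group and at 42 °C for the heat group, so both groups shared the inversion and the immersion. There were 2 footprint libraries per temperature, each from pooled shoots, and the question was the effect of temperature on translational efficiency. The table gives 1 score per transcript and temperature and no value per library, so no difference below has a replicate check, a standard error or a p-value. Differences are described by size alone, and the depth behind each score is unknown. Scores are taken to be translational efficiency, the quantity the libraries were made for, meaning ribosome footprints relative to RNA. Footprints and RNA are not given apart, and so more footprints and less RNA cannot be told apart in a higher score. All 48 loci described as light-harvesting, photosystem or Rubisco small subunit proteins, which mark green shoot tissue, had scores above 0 at both temperatures. So did 9280 of all 10455 loci, and footprints relative to RNA do not give the amount of a marker. The tissue is thus not checked by these scores. Past 2-fold, 7 (14.6%) of the 48 marker loci were lower at 42 °C and 3 (6.25%) higher, beside 21.6% and 16.1% of all loci with a ratio. The log2 ratios of the marker loci ran from -8.08 to 1.67.

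A synthetase first activates its amino acid with ATP and then transfers it to the end of the matching tRNA, and the charged tRNA is what the ribosome reads codons with. The enzymes fall into 2 structurally unrelated classes. Class I, with a Rossmann-fold catalytic domain, serves Arg, Cys, Gln, Glu, Ile, Leu, Met, Trp, Tyr and Val. Class II, built around an antiparallel sheet, serves Ala, Asn, Asp, Gly, His, Lys, Phe, Pro, Ser and Thr. Plant cells translate in the cytosol, plastids and mitochondria, and all their synthetases are encoded in the nucleus. In Arabidopsis many of them are sent to more than 1 compartment.

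More of these loci had a lower score at 42 °C than a higher one, and the largest ratios were downward, among loci with low scores. Of the 46 loci, 39 had a score above 0 at both temperatures and therefore a ratio, 4 were listed at 0 at 42 °C alone, 3 were listed at 0 at both and 0 were listed at 0 at 22 °C alone. Of all 10455 loci, 480 were listed at 0 at 42 °C alone, 461 at both and 234 at 22 °C alone. More zeros at 42 °C than at 22 °C were thus found over the whole table too. Among the 39 loci, 24 had a lower score at 42 °C and 15 a higher one. At a ratio of at least 2-fold, 5 loci (12.8%) were higher at 42 °C, against 16.1% of the 9280 loci of the whole table with a ratio. At the same threshold 13 loci (33.3%) were lower, against 21.6% of the whole table. The share of higher loci was thus near the background, and the share of lower loci above it. The median log2 ratio of 42 over 22 °C was -0.31 in the 39 loci and 0.029 in the 9280. With the loci at 0 at a single temperature entered as the lowest or highest ranks, these medians were -0.48 over 43 loci and -0.0074 over 9994.

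The lower calls lay mostly at the bottom of the score range. The median score of the synthetase loci, leaving out those at 0 at both temperatures, was 0.0396 at 22 °C and 0.0457 at 42 °C, against 0.0869 and 0.0803 over all loci. Of the 23 loci with a mean score of at least 0.05, 4 (17.4%) were lower by 2-fold or more and 3 (13.0%) were higher by as much, beside 14.4% and 13.9% of the 6239 loci of the table at that level. Both shares were close to the background. Of the 16 loci with a ratio and a mean score under 0.05, 9 (56.2%) were lower and 2 (12.5%) higher, beside 36.3% and 20.7% of 3041 loci of the table. The 7 loci listed at 0 at 1 or both temperatures also had mean scores under 0.05. A ratio of 2 low scores of unknown depth can be large through few reads, and the part of depth in these ratios was not tested.

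**Figure D1:**
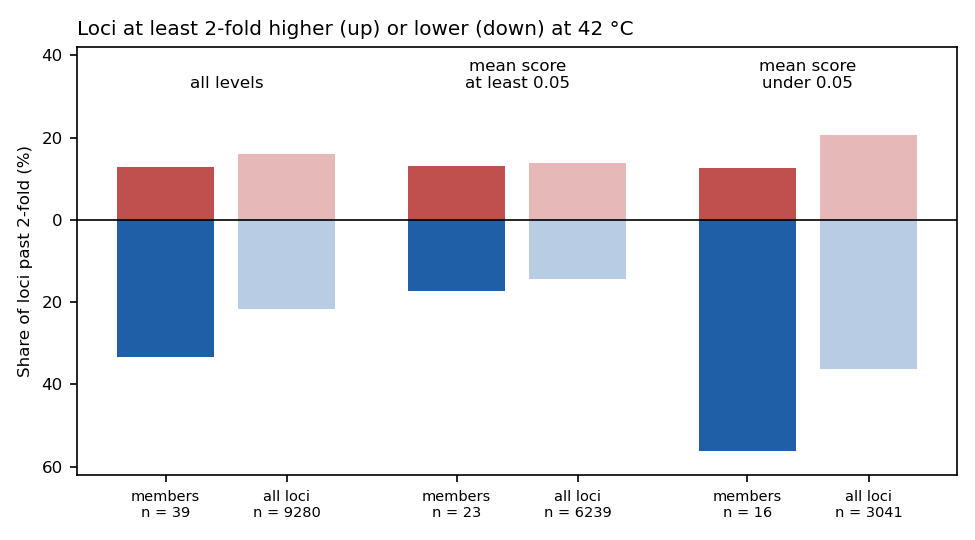
Share of loci, in percent, whose score was at least 2-fold higher (bars above 0) or at least 2-fold lower (bars below 0) at 42 °C, for the synthetase loci (dark, "members") and for all loci of the table (pale), with the number of loci that had a ratio under each bar. The 2 sets are close at a mean score of at least 0.05, where 17.4% of the members and 14.4% of all loci were lower, and lie further apart below it, where 56.2% and 36.3% were lower.

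**Figure D2:**
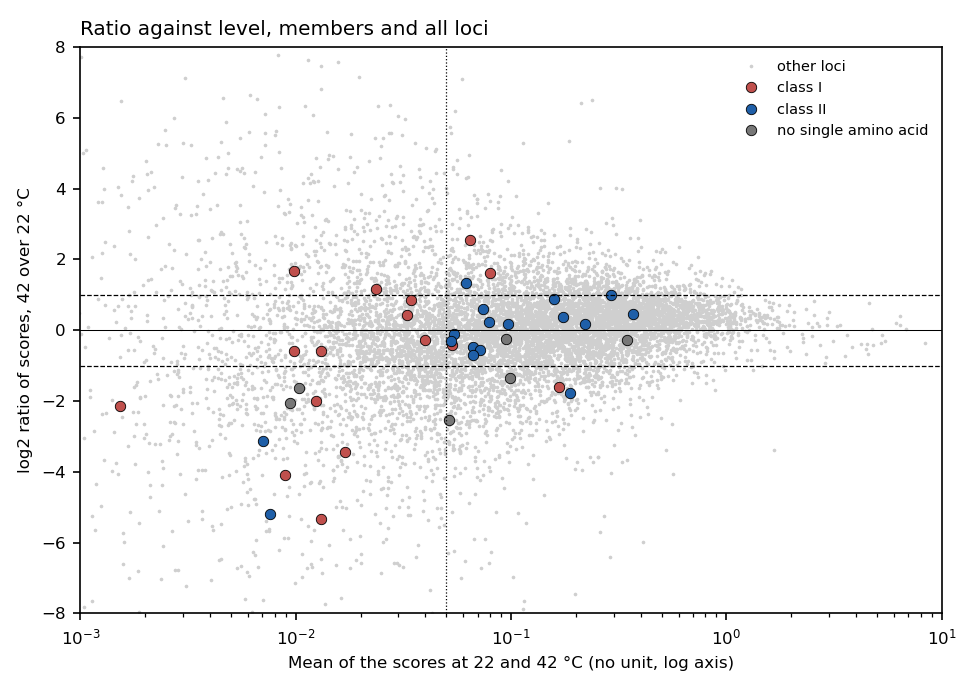
The log2 ratio of scores (42 over 22 °C) against the mean of both scores on a log axis, for the 39 synthetase loci with a ratio (large points, coloured by class) and 9241 other loci (small grey points, of which 120 lie outside the axes). Dashed lines mark 2-fold and the dotted line a mean score of 0.05; most class II points lie right of the dotted line within 2-fold, and the members below a log2 ratio of -3 all lie left of it.

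By score, a locus each for Asn, Asp and Ser stood highest at 42 °C among the named synthetases. The order of the named synthetases at 22 °C began with the asparaginyl enzymes OS01T0372700 (0.311) and OS07T0485400 (0.289), the glutamyl enzyme OS02T0121000 (0.252), the seryl enzyme OS01T0559100 (0.207) and the aspartyl enzyme OS02T0686400 (0.195). At 42 °C the order was OS01T0372700 (0.428), OS02T0686400 (0.385), OS01T0559100 (0.234), the seryl enzyme OS03T0198400 (0.206) and the histidyl enzyme OS05T0150900 (0.197). With no spread between replicates, neighbours in these orders cannot be told apart. Among all loci of the table the score of OS01T0372700 lay at the 83.8th percentile at 22 °C and at the 87.4th at 42 °C, and that of OS02T0686400 at the 72.9th and the 85.5th.

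**Figure D3:**
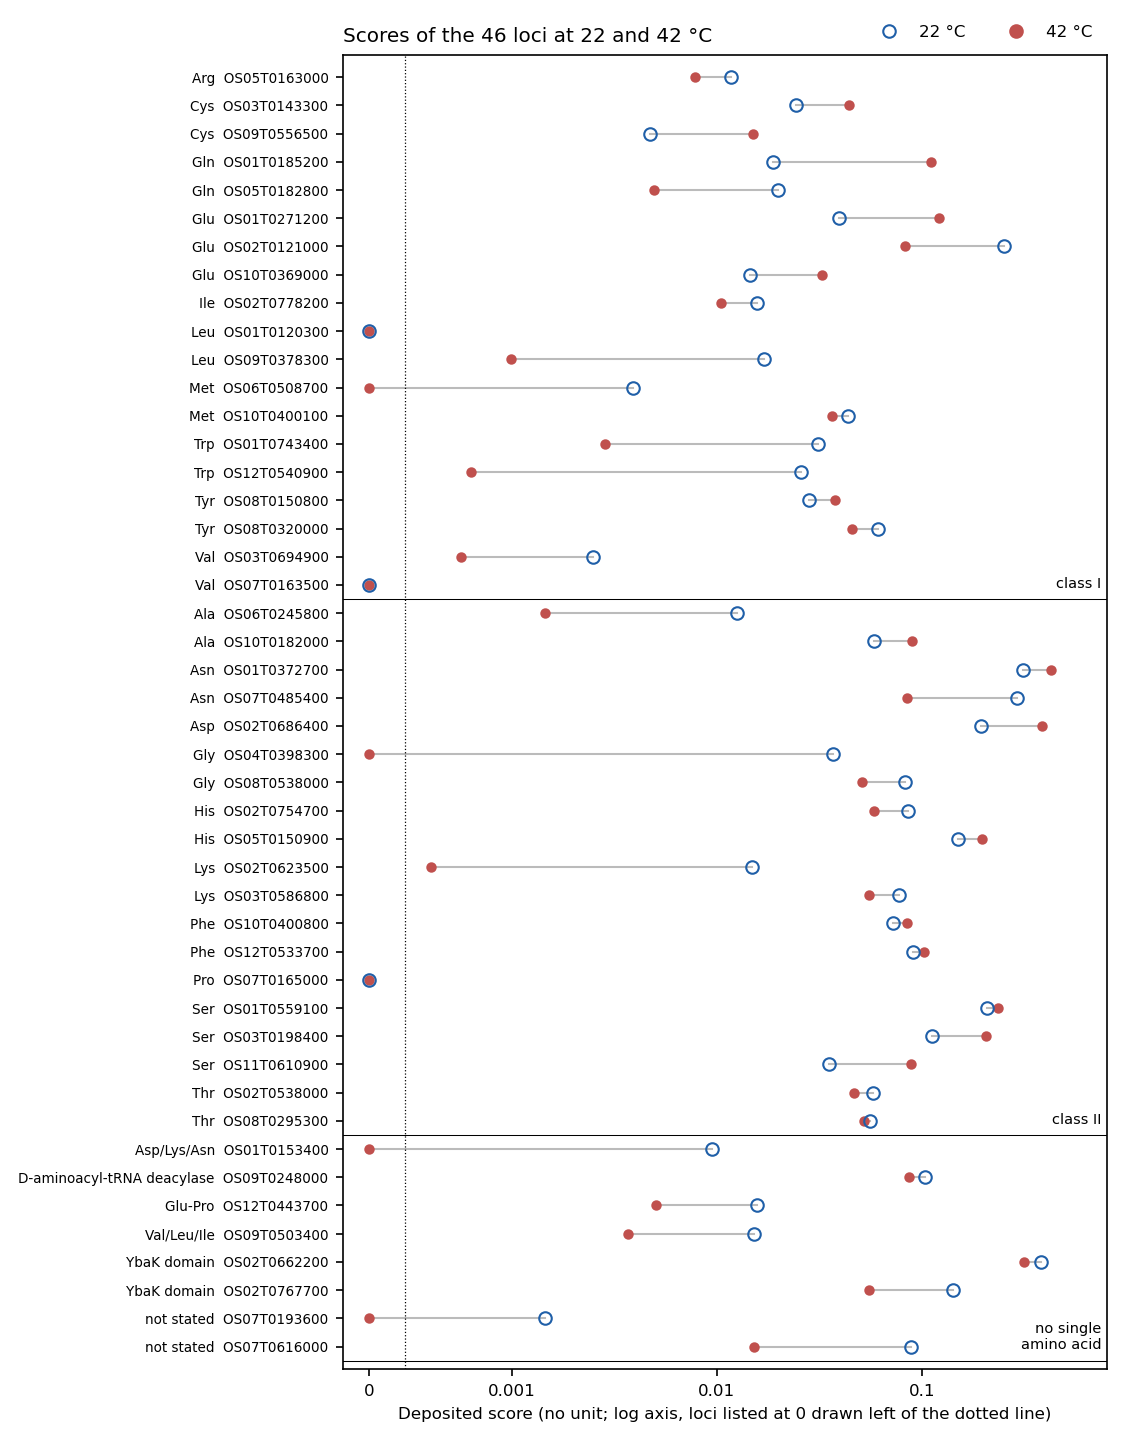
Deposited score of each of the 46 loci at 22 °C (open blue circles) and 42 °C (filled red circles) on a log axis, with loci listed at 0 drawn left of the dotted line, ordered by class and amino acid. The gap between both circles is widest in the tryptophanyl, leucyl and lysyl loci among those above 0 at both temperatures, and the highest score is that of the YbaK-domain locus OS02T0662200 at 22 °C (0.379) and of the asparaginyl locus OS01T0372700 at 42 °C (0.428).

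Class I enzymes gave the extremes in both directions. Of 19 class I loci 16 had a ratio, of which 6 (37.5%) were past 2-fold downward and 4 (25.0%) upward, with a median log2 ratio of -0.50. The same shares were 21.6% and 16.1% over all loci, and 36.3% and 20.7% over those with a mean score under 0.05, where 12 of the 16 lay. The glutaminyl-tRNA synthetase OS01T0185200, of an enzyme type that in plants works in the cytosol, had a score of 0.0188 at 22 °C and 0.110 at 42 °C. Its ratio of 5.86-fold was the highest of the 39 loci and lay at the 96.4th percentile of all ratios in the table. The other glutaminyl locus, OS05T0182800, went the opposite way, with 0.0200 at 22 °C and 0.00494 at 42 °C, or 4.04-fold lower.

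The 3 glutamyl-tRNA synthetase loci also differed in direction. Glutamyl-tRNA serves translation and, in plastids, is the starting material of chlorophyll and haem synthesis. OS01T0271200 had 0.0396 at 22 °C and 0.121 at 42 °C, 3.04-fold higher. OS10T0369000, with 1 transcript described as similar to a cytoplasmic enzyme, had 0.0146 and 0.0326, 2.24-fold higher, but lay inside 2-fold, at a log2 ratio of 0.90, when ratios were centred on loci with a mean score of at least 0.2. OS02T0121000 had 0.252 and 0.0828, 3.04-fold lower, and was the only class I locus with a score above 0.2 at either temperature. At 42 °C OS02T0121000 stood below OS01T0271200, whereas at 22 °C it had the highest score of the 3 loci. Both cysteinyl loci were higher at 42 °C: OS09T0556500, at low scores, had 0.00471 and 0.0150, 3.18-fold higher, and OS03T0143300 had 0.0243 and 0.0442, 1.82-fold higher.

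Both tryptophanyl-tRNA synthetase loci had scores near 0 at 42 °C. OS12T0540900 had 0.0257 at 22 °C and 0.000631 at 42 °C, 40.7-fold lower and the lowest ratio of the 39 locus means. OS01T0743400 had 0.0311 and 0.00286, 10.9-fold lower, and by its lowest-numbered transcript alone, at a log2 ratio of -9.81, it lay below OS12T0540900. Tryptophan is among the rarest amino acids in proteins, and its enzyme is structurally close to that for tyrosine. The tyrosyl loci stayed within 2-fold and pointed in opposite directions, with 0.0281 at 22 °C and 0.0376 at 42 °C for OS08T0150800, and 0.0612 and 0.0457 for OS08T0320000.

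The enzymes for the branched-chain amino acids, which share a domain that removes wrongly attached amino acids, had low scores at both temperatures. The leucyl enzyme OS09T0378300, described as similar to a cytoplasmic enzyme, had 0.0169 at 22 °C and 0.000992 at 42 °C, 17.0-fold lower. The valyl enzyme OS03T0694900 had 0.00249 and 0.000567, 4.40-fold lower, and lay among the lowest scores of the table at both temperatures (11.5th and 11.4th percentiles). The isoleucyl enzyme OS02T0778200 had 0.0156 and 0.0105, within 2-fold. A second leucyl locus, OS01T0120300, and a second valyl locus, OS07T0163500, were listed at 0 at both temperatures. Of the remaining class I enzymes, the arginyl locus OS05T0163000 had 0.0118 and 0.00780. The methionyl locus OS10T0400100, whose enzyme type also charges the initiator tRNA, had 0.0438 and 0.0363, and the second methionyl locus, OS06T0508700, had 0.00391 at 22 °C and was listed at 0 at 42 °C.

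Most class II enzymes stayed within 2-fold, as did most loci of the table. Of 19 class II loci 17 had a ratio, of which 13 (76.5%) lay within 2-fold, 3 (17.6%) were past it downward and 1 (5.88%) upward, beside 62.3%, 21.6% and 16.1% of all loci. Their median log2 ratio was 0.18. Of the 15 class II loci with a mean score of at least 0.05, 13 (86.7%) lay within 2-fold, beside 71.7% of all loci at that level. The other shares at that level were 6.67% downward and 6.67% upward, beside 14.4% and 13.9%. The 3 seryl-tRNA synthetase loci were all higher at 42 °C, although OS01T0559100 turned to a log2 ratio of -0.087 when ratios were centred on loci with a mean score of at least 0.2. OS11T0610900 had 0.0352 at 22 °C and 0.0886 at 42 °C, 2.52-fold higher. Its transcript 01, described as the synthetase, had 0.0269 and 0.0563, a log2 ratio of 1.06. Transcript 02, whose description does not name a synthetase, had 0.0434 and 0.121, a log2 ratio of 1.48. OS03T0198400 had 0.112 and 0.206, 1.85-fold higher, and OS01T0559100 had 0.207 and 0.234, 1.13-fold higher. The seryl locus with the lowest score at 22 °C had the highest ratio, and the one with the highest score the lowest. The score at 22 °C is the divisor of the ratio, so these 2 orders are not independent.

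The enzymes for Asp, Asn and Lys form a closely related group within class II, and their loci had no common direction. The only aspartyl locus, OS02T0686400, had 0.195 at 22 °C and 0.385 at 42 °C, 1.98-fold higher. That ratio lies just inside 2-fold and passed it, at a log2 ratio of 1.08, when scores were read as log2(1 + ratio). The asparaginyl locus OS01T0372700, described as similar to cytoplasmic enzyme 1, had 0.311 and 0.428, 1.38-fold higher, whereas OS07T0485400 had 0.289 and 0.0848, 3.41-fold lower. These 2 asparaginyl loci had near scores at 22 °C, and at 42 °C the first was the highest of all 46 loci. The lysyl locus OS03T0586800 had 0.0771 and 0.0554, within 2-fold. The second lysyl locus, OS02T0623500, had 0.0148 and 0.000402, 36.9-fold lower. That mean joins transcript 01, with 0.0122 and 0.000804 and a log2 ratio of -3.93, and transcript 02, with 0.0174 and 0. A further locus, OS01T0153400, described as a class II enzyme of the D, K and N family, had 0.00948 at 22 °C and was listed at 0 at 42 °C.

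Alanyl-, glycyl- and histidyl-tRNA synthetases each had 2 loci. The alanyl locus OS10T0182000, described as similar to a mitochondrial precursor, had 0.0587 at 22 °C and 0.0892 at 42 °C, 1.52-fold higher. The other alanyl locus, OS06T0245800, had 0.0126 and 0.00145, 8.69-fold lower. The histidyl locus OS05T0150900 had 0.151 and 0.197, and OS02T0754700 had 0.0856 and 0.0584, both within 2-fold and in opposite directions. The glycyl locus OS08T0538000 had 0.0823 and 0.0510, 1.61-fold lower. The other glycyl locus, OS04T0398300, had 0.0370 at 22 °C and was listed at 0 at 42 °C.

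Phenylalanyl- and threonyl-tRNA synthetases differed little between the temperatures at each of their loci. The phenylalanyl alpha chain OS10T0400800, a subunit of the enzyme with separate alpha and beta chains, had 0.0723 at 22 °C and 0.0850 at 42 °C. OS12T0533700, described by the mitochondrial type of the phenylalanyl enzyme, had 0.0903 and 0.103. When centred on loci with a mean score of at least 0.2, both phenylalanyl ratios turned negative, to log2 values of -0.033 and -0.078. The threonyl loci OS02T0538000 (0.0580 and 0.0467) and OS08T0295300 (0.0561 and 0.0523) were slightly lower at 42 °C, but the lowest-numbered transcript of OS08T0295300 was higher there, with 0.0737 and 0.0838 and a log2 ratio of 0.19, and its other transcript was lower, with 0.0385 and 0.0208. The prolyl locus OS07T0165000 was listed at 0 at both temperatures, so that proline was the only amino acid without a ratio from a locus of its own.

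The median log2 ratio of class II exceeded that of class I by 0.68, and the level of the scores moved with class. Of the class II loci with a ratio, 15 had a mean score of at least 0.05, against 4 of class I. Among these loci the medians were 0.19 for class II and 0.59 for class I, so that class II lay below class I by a log2 difference of -0.41. The part of score level in the difference between the classes was not tested.

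Loci for the same amino acid went different ways in some cases and the same way in others. Among all loci with a ratio, 4740 were higher at 42 °C and 4540 lower, a nearly even split. Of the 12 amino acids with at least 2 loci that had a ratio, 6 (Ala, Asn, Gln, Glu, His and Tyr) had loci on both sides of a ratio of 1. For 3 (Cys, Phe and Ser) all loci were higher at 42 °C, of which both Phe loci and 1 Ser locus turned lower under the centring named above, and for 3 (Lys, Thr and Trp) all were lower, of which the Thr locus OS08T0295300 turned higher with its lowest-numbered transcript. In Gln and Glu, loci on both sides were past 2-fold. Loci for the same amino acid can be near-identical copies, between which the counting may divide reads, and nothing in the table shows how such reads were assigned.

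The descriptions name a compartment for few enzymes and gave no clear contrast between compartments. A cytosolic or cytoplasmic enzyme was named for 4 loci, the asparaginyl OS01T0372700, the threonyl OS08T0295300, the leucyl OS09T0378300 and the glutamyl OS10T0369000. Their log2 ratios ran from -4.09 to 1.16, with a median of 0.18. A mitochondrial enzyme was also named for 4 loci, and a plastid enzyme for none of the 46. The mitochondrial loci with a ratio, the glycyl OS08T0538000, the alanyl OS10T0182000 and the phenylalanyl OS12T0533700, ran from -0.69 to 0.60 with a median of 0.19, and the fourth, the glycyl OS04T0398300, was listed at 0 at 42 °C. The medians of the 2 compartments differed by -0.0071 (cytosolic minus mitochondrial), a difference that changed sign with the handling of transcripts. The other 38 loci name no compartment, and the words "similar to" in most descriptions rest on likeness to another protein. In Arabidopsis alanyl-tRNA synthetase serves both the cytosol and mitochondria, so that a mitochondrial name need not mean an enzyme of that compartment alone.

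Members without a single amino acid were lower at 42 °C or listed at 0 there. OS07T0616000, described only by a class I conserved site, had 0.0880 at 22 °C and 0.0151 at 42 °C, 5.83-fold lower. Its transcript 01, which carries that description, had 0.136 and 0.0302, a log2 ratio of -2.17. Transcript 02, whose description does not name a synthetase, had 0.0404 and 0. OS09T0503400, described by the anticodon-binding domain of valyl, leucyl and isoleucyl enzymes, had 0.0152 and 0.00368, 4.13-fold lower. OS12T0443700, described as similar to a Glu-prolyl enzyme (in animals the glutamyl and prolyl enzymes are fused in 1 polypeptide), had 0.0157 and 0.00503, 3.11-fold lower. OS07T0193600, described as a synthetase without an amino acid, had 0.00145 at 22 °C and was listed at 0 at 42 °C.

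The 3 members that are not synthetases are described by domains of proteins that act on tRNA carrying the wrong amino acid. What these rice proteins do was not tested. YbaK proteins of bacteria release cysteine from proline tRNA. The YbaK-domain locus OS02T0662200 had the highest score of all 46 loci at 22 °C, 0.379, with 0.314 at 42 °C. The second such locus, OS02T0767700, had 0.142 and 0.0552, 2.57-fold lower. D-aminoacyl-tRNA deacylase, which frees tRNA from D-amino acids, had 0.104 and 0.0864 at OS09T0248000. Without these 3 loci and the 5 synthetases of no single amino acid, 33 loci with a ratio remained, of which 5 (15.2%) were past 2-fold upward and 9 (27.3%) downward, closer to the 16.1% and 21.6% of all loci, and the median log2 ratio was -0.27.

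Transcripts of 1 locus mostly pointed the same way, with exceptions that decide some locus values. More than 1 transcript was listed for 18 of the 46 loci, and 14 of these had at least 2 transcripts with a ratio. In 4 of the 14 the transcripts lay on both sides of a ratio of 1. In the glutaminyl locus OS01T0185200 both transcripts were higher at 42 °C, from 0.0187 to 0.146 in transcript 01 and from 0.0190 to 0.0745 in transcript 03. In the aspartyl locus OS02T0686400 the log2 ratios were 0.83 and 1.15, on either side of 2-fold. Both transcripts of the tryptophanyl locus OS12T0540900 were lower, with log2 ratios of -5.84 and -5.17.

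The tryptophanyl locus OS01T0743400 was different. Its transcript 01, described as the synthetase, had 0.0564 at 22 °C and 6.27e-05 at 42 °C, while transcript 02, described as similar to a predicted protein, had 0.00585 and 0.00566. The 3 transcripts of the Glu-prolyl locus OS12T0443700 had no common direction, with 0.0166 and 0.00194, 0.00272 and 0.0132, and 0.0276 and 0. In the glycyl locus OS04T0398300 the transcript described as a synthetase was listed at 0 at both temperatures, and the locus value came wholly from transcript 02, described only as similar to H0209H04.1 protein, with 0.0740 at 22 °C and 0 at 42 °C. Of the 67 transcripts 8 carried such descriptions that do not name a synthetase. With these 8 left out, again 5 loci were past 2-fold upward and 13 downward.

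**Figure D4:**
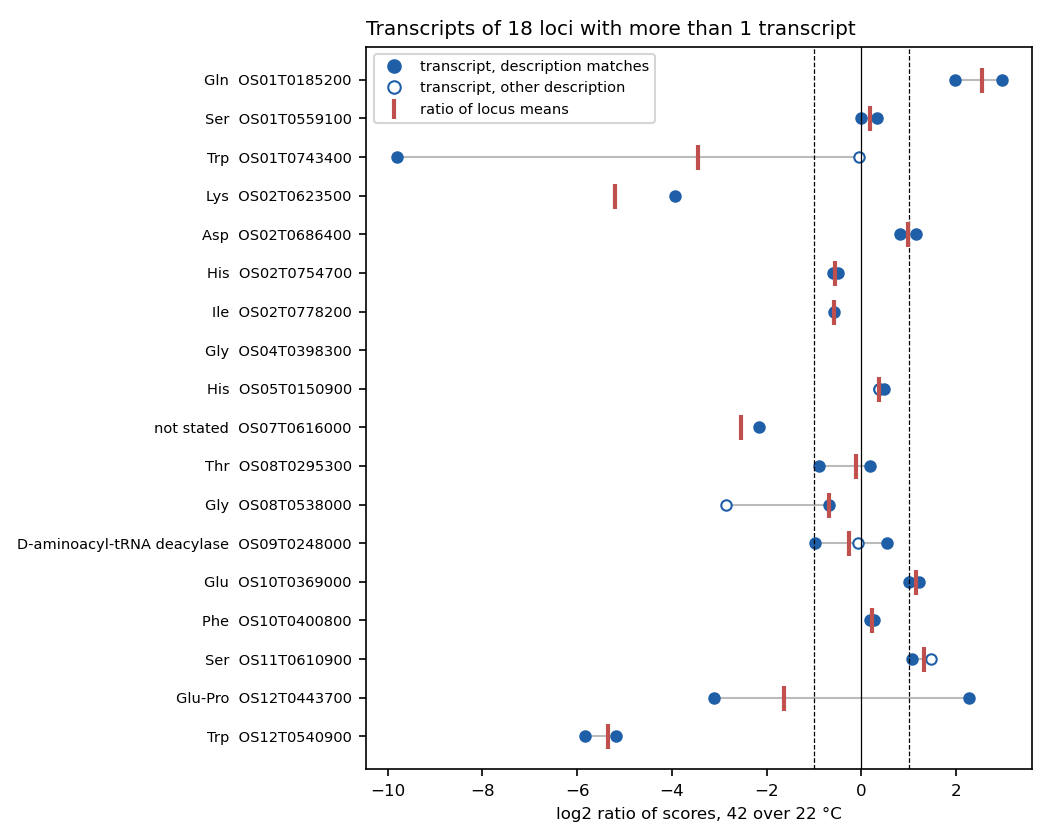
Log2 ratio of scores (42 over 22 °C) of each transcript of the 18 loci with more than 1 transcript; filled circles are transcripts whose own description matches, open circles are other transcripts of the locus, and red bars are the ratios of the locus means. Transcripts listed at 0 at either temperature have no ratio and are not drawn, and the widest gap is that of the tryptophanyl locus OS01T0743400, from -9.81 to -0.048.

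Other loci whose descriptions mention tRNA, not all of them described as enzymes, were lower at 42 °C more often than higher. The table holds 29 such loci outside the 46, and 22 of them had a ratio. Of these 22 loci, 9 (40.9%) were past 2-fold downward and 1 (4.55%) upward, with a median log2 ratio of -0.55, beside the background of 21.6% and 16.1%. The 1 upward call came from a score of 7e-06 at 22 °C and 0.0163 at 42 °C. Of the loci without a ratio, 3 were listed at 0 at 42 °C alone, 2 at 22 °C alone and 2 at both. Among the 16 loci with a mean score of at least 0.05, 6 (37.5%) were lower and 0 higher, against 14.4% and 13.9% of all loci at that level. The lowest ratios at that level belonged to OS01T0742000, OS10T0141900 and OS09T0482680. OS01T0742000, described by a SpoU methyltransferase domain, had 0.116 at 22 °C and 0.000906 at 42 °C. OS10T0141900, described as of the queuine/other tRNA-ribosyltransferase family, had 0.111 and 0.00461. OS09T0482680, described as similar to a chloroplast ribonuclease Z, a type of enzyme that trims the tRNA 3′ end, had 0.182 and 0.0338. The highest ratios at that level were those of 2 loci described by a tRNA-binding arm domain, OS08T0526300 (0.0407 and 0.0763) and OS03T0857400 (0.0746 and 0.126). Next came OS08T0506500 (0.143 and 0.188), described as similar to a SpoU-type methyltransferase.

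By their descriptions, some of these loci use the products of the synthetases, bind a protein that does, or prepare a tRNA for its synthetase. They were picked for these roles after their scores were seen. Plant organelles make glutaminyl-tRNA from glutamyl-tRNA by an amidotransferase. Its C subunit, OS03T0651000, had 0.119 at 22 °C and 0.0304 at 42 °C, and the B subunit, OS11T0544800, had 0.0199 and 0. Glutamyl-tRNA reductase, the first enzyme of the chlorophyll pathway to use glutamyl-tRNA, had 0.116 and 0.0444 at OS10T0502400. The locus for a protein that binds this reductase, OS08T0254900, had 0.756 and 0.986, the highest scores of the 29 loci. The enzyme that adds the guanine by which histidyl-tRNA synthetase knows its tRNA, OS05T0535500, had 0.0384 and 0.0256.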

How the data were processed

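Footprint libraries of rice shoots, 2 per temperature, passed through cutadapt and Bowtie2 (submitters' processing notes). The sources used here give no tool version, genome build, annotation or formula of the score. The deposited score columns carry only the temperature, per their headers. There is 1 score per transcript and temperature, and how the 2 libraries of a temperature entered it is not stated. The authors' deposited difference equalled the score at 42 °C minus that at 22 °C within 1e-05 in all 14122 transcripts. A linear ratio and a log of 1 plus a ratio cannot be told apart.

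Scores were averaged over the transcripts of each locus, and log2 ratios were taken for loci above 0 at both temperatures. Calls used a 2-fold ratio. The rule for the members uses only words in the descriptions, but the enzyme family and the other lists were chosen with earlier results of these data known. Amino acid and compartment were read from the descriptions; every member is named, and of the other tRNA loci the 3 highest and 3 lowest ratios at a mean score of at least 0.05, plus those marked. The alternatives changed thresholds, minimum scores, transcript handling, scale, pseudocount, centring and membership; one, using matching transcripts alone, was added after seeing the data. Python 3.11.15, numpy 2.4.6, pandas 2.3.3, scipy 1.17.1 and matplotlib 3.10.9 were used.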

Additional observations from a re-analysis of the deposited data

How the results depend on the processing

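The table has no value per library, so leaving out replicates was not run. No paired analysis was possible because the deposited scores carry no replicate. The count of members at least 2-fold higher (5) was 9 at 1.5-fold, 3 at 3-fold, 10 with each transcript on its own, 3 at a mean score of at least 0.05, 0 at 0.2 and 0 with 0.1 added to every score; it was 6 with scores read as log2(1 + ratio) and 4 when centred on loci with a mean of at least 0.2. The count lower (13) was 4 and 0 at these minimum scores, 1 with 0.1 added, and between 12 and 15 otherwise, apart from 9 among loci naming an amino acid. Shares of all loci past 2-fold were computed for the whole table and for mean scores on either side of 0.05 alone. Counts at other fold thresholds, minimum scores, transcript handling, scales, centring or pseudocounts, here and for the other tRNA loci, thus have no background share. The members' median log2 ratio (-0.31) turned to 0.32 among the 4 loci with a mean of at least 0.2, and was -0.58 when centred on all loci at that level, a shift of 0.27. That centring turned the class II median to -0.0865. At a mean of at least 0.05 the class I median was 0.59 and class II minus class I -0.41. The cytosolic minus mitochondrial difference was 0.57 with each transcript on its own, 0.14 with the lowest-numbered transcript and 0.0196 with scores read as log2(1 + ratio). For the other tRNA loci, the count higher (1) was 3 at 1.5-fold, 2 with each transcript on its own, and 0 at both minimum scores and with 0.1 added. Their count lower (9) was 0 at a mean of at least 0.2 and 3 with 0.1 added. Their median turned to 0.15 at 0.2, where only OS06T0134050 (log2 ratio -0.084) and OS08T0254900 (0.38) remained. Minimum scores leave fewer loci, and 0.1 exceeds most members' scores, so it shrinks their ratios; other causes were not tested. Centring on loci with a mean of at least 0.2 moved higher calls from 27.8% to 23.5% of the members' calls, and from 42.8% to 30.0% of all calls. No member past 2-fold changed direction under the alternatives computed for single loci. The depth behind each score is unknown.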
